A study of Homo sapiens with 8 samples.

Results

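Chaperones and other protein folding genes were followed in an AGO2 RIP-chip experiment. The set was a list of 60 genes by name, 31 of the cytosol, 20 of the endoplasmic reticulum (ER) and 9 of the mitochondrion, and its rule uses no measured value, although it was drawn up with earlier results of these data known. A gene was kept when all 8 arrays read one of its probes well above background, and where several did, the brightest was used. By this rule 54 of the 60 genes were measured (27 cytosolic, 18 ER and 9 mitochondrial) among 10956 measured genes in all. A431, a human cSCC cell line, was transfected with 10 nM of the negative control miR-NC or of miR-634 and lysed after 24 h. RNA bound to the AGO2 protein was recovered with an AGO2 antibody (RIP), and total RNA served as the input. Input and RIP of either kind of cell made 4 groups of 2 one-color arrays each. The sample labels give normal rabbit IgG as the antibody of the input arrays, whereas the methods call them total RNA, and they are taken as input here. It is not stated whether the duplicates were separate transfections, so the p-values below measure the spread between these arrays, which may be technical.

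Chaperones bind unfolded proteins and keep them from aggregating while they fold. Hsp70 proteins do so in cycles of ATP hydrolysis that J-domain proteins start and nucleotide exchange factors such as GRPEL1 or the BAG proteins end. Hsp90 proteins act later on folded clients such as kinases, and TRiC, a ring built of CCT subunits and TCP1, encloses actin and tubulin. The ER has its own Hsp70 (HSPA5), Hsp90 (HSP90B1), lectin chaperones (CALR and CANX) and disulfide isomerases, and the mitochondrion has HSPA9, TRAP1 and the chaperonin pair HSPD1 and HSPE1. A miRNA loaded on AGO2 pairs with mRNAs mainly through its seed, bases 2 to 8 from its 5′ end, so a transfected miRNA can bring further mRNAs into the AGO2 RIP and lower their level in total RNA.

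The transfected miRNA is shown first because its seed defines what it can pair with. The mature sequence, from the RefSeq annotation of GRCh38.p14 at chr17:66787132-66787153 on the plus strand, has 22 bases, and capitals mark the seed. Transcript sequences were not used here, so no pairing site in any of the genes below is given.
hsa-miR-634: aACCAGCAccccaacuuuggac

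A level is the log2 intensity of a probe minus the array's 75th percentile, and enrichment is the RIP level less that of the input. Levels depend on the probe and are compared here within a gene, not between genes. In miR-NC cells, enrichment was called above 0 for 16 of the 54 measured genes and below 0 for 24, by limma with Benjamini-Hochberg adjustment over all 10956 genes at a threshold of 0.05. Of all genes, 33.6% were called higher and 45.3% lower. In miR-634 cells, 28 were called higher and 23 lower, against 36.1% and 48.3% of all genes. With each array scaled on its percentile over all probes, 10 were higher and 24 lower in miR-NC cells. With the 7 spike-in probes as the scale, limma called 0 higher and 53 lower there, and 0 were higher at an unadjusted p under 0.05 as well.

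**Figure D1:**
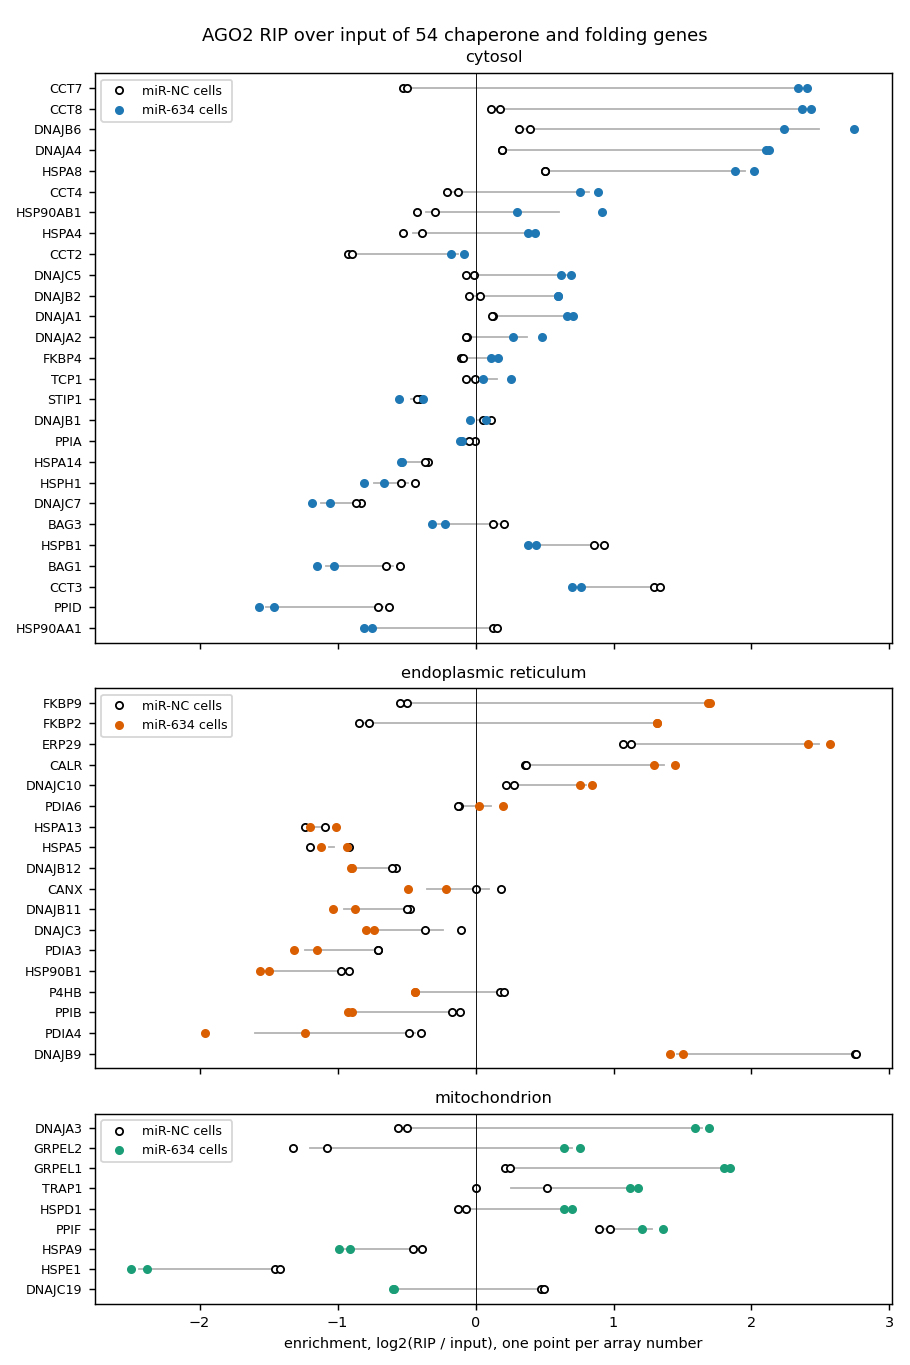
AGO2 enrichment, as log2 RIP over input, of the 54 measured genes by compartment, ordered by its change. Open points are miR-NC cells and filled points miR-634 cells, 1 point for each array number, and a gray line joins the means. CCT7 runs from -0.51 to 2.37, whereas DNAJB9 runs from 2.75 down to 1.46.

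Between miR-NC and miR-634 cells the enrichment of these genes moved both ways. The change of enrichment (miR-634 minus miR-NC) was called higher for 26 and lower for 22, against 28.1% and 43.3% of all genes, so that 48 of 54 were called where most genes of the arrays were called as well. In all 48 the arrays numbered 1 and those numbered 2 gave the same sign. The median change was 0.12 over the 54 genes and -0.22 over all genes, and 33 of the 54 lay above the median gene, a count that no shift of whole arrays alters. A rise of more than 2-fold was found in 12 of the 54 (22.2%, against 13.3% of all genes) and a fall of more than 2-fold in 4 (7.41%, against 8.56%). These counts include 7 genes that the study chose on these same arrays, so they are no independent evidence. Of those 7, CALR, DNAJA3, ERP29, FKBP9, GRPEL1 and GRPEL2 are among the 12. Among the other 47 measured genes, 26 lay above the median gene. With the spike-in scale, under which the median of all genes was 0.87, limma called 41 higher and 0 lower (44 and 0 at an unadjusted p under 0.05), and 20 of the 22 falls turned positive, so the falls given below hold on the percentile scale. Of these 22 falls, 21 lay below the median gene, and that of HSPA14 lay above it. The 27 cytosolic genes had 14 rises and 9 falls with a median of 0.24, the 18 ER genes 6 rises and 10 falls with a median of -0.38, and the 9 mitochondrial genes 6 rises and 3 falls with a median of 0.77. Genes the study chose on these arrays are among the rises of the ER (CALR, ERP29 and FKBP9) and the mitochondrion (DNAJA3, GRPEL1, GRPEL2 and HSPD1). Of the other mitochondrial genes, TRAP1 and PPIF rose and HSPA9, HSPE1 and DNAJC19 fell. With the percentile over all probes, 5 cytosolic falls were called.

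**Figure D2:**
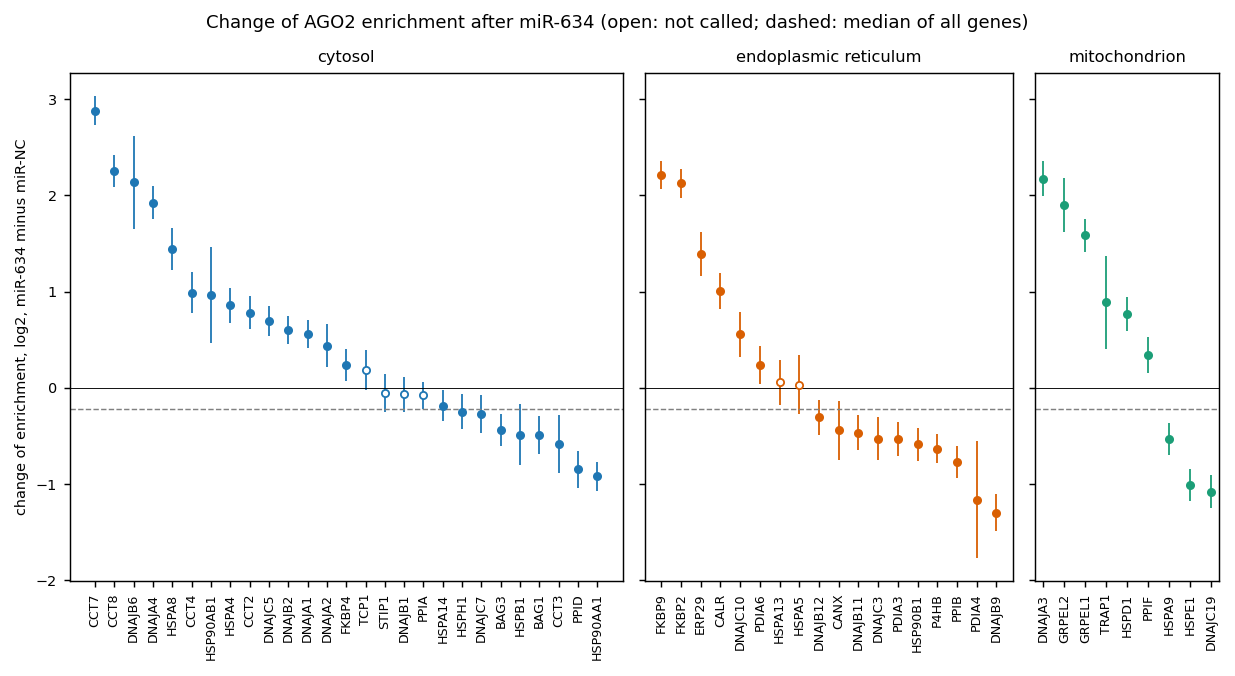
Change of AGO2 enrichment (log2, miR-634 minus miR-NC) of each measured gene by compartment, with 95% intervals from the limma fit. Filled points were called and open points were not, and the dashed line is the median of all genes at -0.22. Each compartment holds genes on both sides of that line.

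In the cytosol, the largest rises were in subunits of the TRiC ring. CCT7 had levels of 2.67 and 2.67 in the miR-NC input, 2.14 and 2.17 in the miR-NC RIP, 2.59 and 2.58 in the miR-634 input, and 4.92 and 4.98 in the miR-634 RIP. The miR-634 RIP arrays thus stood far above the other 6, and the enrichment rose 7.36-fold (log2 2.88, SE 0.06, adjusted p = 6.52e-07). CCT8 had levels of 1.83 and 1.83, 1.94 and 2.01, 1.64 and 1.57, and 4.0 and 4.0 in the same order of groups, a 4.77-fold rise (log2 2.25, SE 0.07, adjusted p = 1.35e-06). Smaller rises were called for CCT4 (log2 0.99) and CCT2 (0.78). CCT2 had the lowest enrichment of the cytosolic genes in miR-NC cells, at -0.91 ± 0.02 (SD, n = 2), with 3.45 and 3.44 in the miR-NC input and 2.52 and 2.54 in the miR-NC RIP, and it remained at -0.13 in miR-634 cells. TCP1 was not called (0.19, adjusted p = 0.0887).

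CCT3, of the same ring, went the other way. It had the highest enrichment of the cytosolic genes in miR-NC cells, 1.31 ± 0.03 (SD, n = 2), from 3.21 and 3.21 in the input to 4.51 and 4.55 in the RIP. In miR-634 cells the input lay at 3.36 and 3.52 and the RIP at 4.06 and 4.28, an enrichment of 0.73 ± 0.04 and a change of -0.58 (SE 0.12, adjusted p = 0.00546). CCT5, the other subunit on the list, was well above background on all 4 input arrays and both miR-634 RIP arrays but on neither miR-NC RIP array. Its miR-634 RIP level was at least 1.62-fold that of the miR-NC RIP, a bound that was not tested. Of 6 measured ring subunits, 4 were called higher and 1 lower in the change of enrichment, beside 28.1% and 43.3% of all genes.

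The cytosolic Hsp90 pair divided in the same manner. HSP90AA1, the stress-inducible Hsp90, had levels of 5.16 and 5.17 in the miR-NC input, 5.28 and 5.33 in the miR-NC RIP, 5.38 and 5.43 in the miR-634 input, and 4.63 and 4.63 in the miR-634 RIP. The miR-634 RIP arrays were the lowest of the 8 and the change was -0.92 (SE 0.06, adjusted p = 3.25e-05), a 1.89-fold lower enrichment. Its other 2 probes gave -0.85 and -0.91. HSP90AB1, the constitutive Hsp90, lay at 3.44 and 3.48, 3.14 and 3.05, 3.39 and 3.23, and 3.68 and 4.15 in the same order, and its enrichment rose by 0.97 (SE 0.21, adjusted p = 0.00544). The miR-634 RIP arrays of HSP90AB1 differed by more than those of most genes but did not overlap with the miR-NC RIP arrays, as in 86.6% of all genes, and its other probe gave 1.07.

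Among cytosolic Hsp70 genes, HSPA8, the constitutive Hsp70, rose 2.72-fold (log2 1.45, SE 0.09, adjusted p = 2.26e-05), from an enrichment of 0.51 in miR-NC cells to 1.95 ± 0.10 (SD, n = 2). HSPA4, an Hsp110 that acts as an exchange factor of Hsp70, rose by 0.86 (adjusted p = 0.000103), whereas HSPH1, of the same family, fell by 0.25 (adjusted p = 0.0242) and HSPA14, which works at the ribosome, fell by 0.18 (adjusted p = 0.045). The call of HSPH1 and that of HSPA14 were lost with the percentile over all probes, with changes of -0.13 and -0.06.

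Of the cytosolic J-domain genes, DNAJB6, which keeps polyglutamine proteins from aggregating, changed most. Its levels were 2.23 and 2.19 in the miR-NC input, 2.54 and 2.59 in the miR-NC RIP, 1.22 and 1.19 in the miR-634 input, and 3.45 and 3.93 in the miR-634 RIP. Its enrichment rose 4.40-fold (log2 2.14, SE 0.20, adjusted p = 0.000134), with the RIP higher and the input lower. Of the other J-domain partners of Hsp70, DNAJA4 rose by 1.92, DNAJC5, a chaperone of synaptic vesicles, by 0.70, DNAJB2 by 0.60, DNAJA1 by 0.56 and DNAJA2 by 0.44, and each of these was called. DNAJB1, the classic heat shock partner of Hsp70, had a change of -0.07 and was not called (adjusted p = 0.464), and DNAJC7 fell by 0.27 (adjusted p = 0.023). The call of DNAJC7 was lost with the percentile over all probes (-0.15, adjusted p = 0.213) and without any 1 of 4 arrays, which were number 2 of the miR-NC input and number 1 of every other group (adjusted p between 0.0549 and 0.0789).

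The remaining cytosolic genes include prolyl isomerases and cochaperones. The prolyl isomerase PPID, a partner of Hsp90, fell by 0.85 (adjusted p = 0.000142), the exchange factors BAG1 and BAG3 fell by 0.49 and 0.44, and the small heat shock protein HSPB1 fell by 0.49 (adjusted p = 0.0148). The fall of HSPB1 was -0.23 and not called with quantile normalization. FKBP4, an immunophilin that joins Hsp90, rose by 0.24 (adjusted p = 0.02). The Hsp70-Hsp90 adaptor STIP1 (-0.05) and the cyclophilin PPIA (-0.08) were not called.

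In the ER, the largest rises were in prolyl isomerases. FKBP9 had levels of 3.07 and 3.09 in the miR-NC input, 2.57 and 2.53 in the miR-NC RIP, 2.56 and 2.52 in the miR-634 input, and 4.24 and 4.22 in the miR-634 RIP. It was thus below its input in the miR-NC RIP and above it in the miR-634 RIP, a 4.64-fold rise (log2 2.22, SE 0.06, adjusted p = 1.05e-06). FKBP2 rose 4.36-fold (log2 2.12, SE 0.06, adjusted p = 1.32e-06). The cyclophilin PPIB, in contrast, fell by 0.77 (SE 0.07, adjusted p = 9.92e-05), with both miR-634 RIP arrays at 1.82 and the other 6 between 2.55 and 2.75.

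DNAJB9, a J-domain partner of HSPA5 and a gene induced by ER stress, had the highest enrichment of all 54 genes in miR-NC cells and the largest fall. Its levels were -0.79 and -0.74 in the miR-NC input and 1.96 and 2.02 in the miR-NC RIP, an enrichment of 2.75. In miR-634 cells they were -0.35 and -0.47 in the input and 1.05 and 1.04 in the RIP, an enrichment of 1.46 ± 0.07 (SD, n = 2). The change was -1.30 (SE 0.08, adjusted p = 2.04e-05), and DNAJB9 mRNA was still well over its input in the RIP.

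Among disulfide isomerases the chaperone ERP29 rose and 3 of the 4 enzymes with thioredoxin active sites fell. ERP29 had levels of 1.70 and 1.66 in the miR-NC input, 2.82 and 2.73 in the miR-NC RIP, 1.35 and 1.35 in the miR-634 input, and 3.76 and 3.92 in the miR-634 RIP, so its enrichment rose from 1.1 ± 0.04 to 2.49 ± 0.11 (SD, n = 2; log2 change 1.39, SE 0.09, adjusted p = 3.13e-05). PDIA4 had levels of 1.83 and 1.85, 1.35 and 1.45, 2.19 and 2.07, and 0.23 and 0.83 in the same order, a change of -1.16 (SE 0.25, adjusted p = 0.00584). Its miR-634 RIP arrays differed by 0.60 but both lay under the other 6. P4HB fell by 0.63 and PDIA3 by 0.53, both called, and PDIA6 rose by 0.24 (adjusted p = 0.0377), a call lost with quantile normalization (0.18, adjusted p = 0.118).

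The lectin chaperones of the calnexin cycle, which hold glycoproteins until they are folded, moved in opposite directions. CALR had levels of 6.01 and 5.96 in the miR-NC input, 6.37 and 6.32 in the miR-NC RIP, 5.47 and 5.57 in the miR-634 input, and 6.92 and 6.86 in the miR-634 RIP, a 2.01-fold rise of enrichment (log2 1.01, SE 0.08, adjusted p = 5.34e-05). CANX fell by 0.44 (SE 0.13, adjusted p = 0.0184), with 0.31 and 0.21 in the miR-NC input, 0.32 and 0.40 in the miR-NC RIP, 0.46 and 0.71 in the miR-634 input, and 0.25 and 0.23 in the miR-634 RIP. The RIP level of CANX changed by -0.12 and was not called by limma (adjusted p = 0.261), while its input changed by 0.32. The call of CANX was lost without the miR-NC input array numbered 2 (-0.39, adjusted p = 0.063) and with the percentile over all probes (-0.32, adjusted p = 0.08).

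The ER Hsp70 genes did not pass the test. HSPA5, also known as BiP, had an enrichment of -1.06 in miR-NC cells and of -1.02 with miR-634, and its change of 0.03 (SE 0.13) was not called (adjusted p = 0.818). HSPA13 had the lowest enrichment of the ER genes in miR-NC cells, -1.16 ± 0.10 (SD, n = 2), from -0.77 and -0.75 in the input to -1.86 and -1.99 in the RIP. In miR-634 cells it went from -0.59 and -0.55 to -1.60 and -1.75, with a change of 0.06 (adjusted p = 0.617). HSP90B1, the ER Hsp90, fell by 0.58 (adjusted p = 0.000433). Of the other J-domain genes that serve HSPA5, DNAJC3 fell by 0.53 and DNAJB11 by 0.47, whereas DNAJC10, whose product also reduces disulfides, rose by 0.56. DNAJB12, whose product sits in the ER membrane with its J domain in the cytosol, fell by 0.31, and all 4 were called. The call of DNAJB12 was lost with the percentile over all probes (-0.19, adjusted p = 0.149).

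In the mitochondrion, DNAJA3, GRPEL1 and GRPEL2, partners of the Hsp70 HSPA9, rose, whereas HSPA9 itself fell, as did DNAJC19. DNAJA3, its J-domain partner, had levels of 0.76 and 0.76 in the miR-NC input, 0.20 and 0.26 in the miR-NC RIP, 0.45 and 0.46 in the miR-634 input, and 2.04 and 2.15 in the miR-634 RIP, a 4.51-fold rise (log2 2.17, SE 0.08, adjusted p = 2.18e-06). GRPEL2, a nucleotide exchange factor, had -0.73 and -0.74, -2.05 and -1.82, -0.76 and -0.87, and -0.12 and -0.11 in the same order, a 3.73-fold rise (log2 1.90, SE 0.12, adjusted p = 2.04e-05). GRPEL1, the other exchange factor, had -0.68 and -0.66, -0.46 and -0.40, -1.43 and -1.47, and 0.41 and 0.33, a 3.0-fold rise (log2 1.59, SE 0.07, adjusted p = 5.58e-06). For HSPA9 the arrays gave 0.27 and 0.27, -0.12 and -0.18, 0.41 and 0.34, and -0.58 and -0.57, a change of -0.53 (SE 0.07, adjusted p = 0.000532). The miR-634 RIP arrays were thus the highest of the 8 for DNAJA3, GRPEL1 and GRPEL2 and the lowest for HSPA9.

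The chaperonin pair of the mitochondrion, whose products form the barrel and its lid, also divided. HSPD1, the barrel, had levels of 4.40 and 4.44 in the miR-NC input, 4.27 and 4.37 in the miR-NC RIP, 4.44 and 4.44 in the miR-634 input, and 5.14 and 5.09 in the miR-634 RIP, a rise of 0.77 (SE 0.07, adjusted p = 0.000141). HSPE1, the lid, had 4.75 and 4.75 in the miR-NC input, 3.30 and 3.33 in the miR-NC RIP, 4.75 and 4.76 in the miR-634 input, and 2.36 and 2.27 in the miR-634 RIP. Its enrichment of -1.43 ± 0.02 (SD, n = 2) was the lowest of all 54 genes in miR-NC cells and fell further, by 1.01 (SE 0.07, adjusted p = 3.34e-05). The input change was 0.02 for HSPD1 and 0.01 for HSPE1, and neither was called.

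HSPD1 and HSPE1 are neighbours read in opposite directions. In the RefSeq annotation of GRCh38.p14, HSPD1 starts at chr2:197500274 on the minus strand and HSPE1 at chr2:197500379 on the plus strand, 105 bases apart, and their promoter windows (250 bases before to 50 after a start) share 204 bases. The 104 bases between the start sites are printed because both genes are read outward from them while their mRNAs moved apart in the RIP. They lie at chr2:197500275-197500378 and are written on the plus strand. Of these bases, 74.0% are G or C. Capitals mark CACGTG, which reads the same on both strands and is found in 7.26% of 35116 promoter windows.
HSPD1-HSPE1 interval: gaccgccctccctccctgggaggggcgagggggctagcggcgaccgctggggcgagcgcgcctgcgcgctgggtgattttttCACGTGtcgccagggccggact

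TRAP1, the mitochondrial Hsp90, rose by 0.89 (SE 0.20, adjusted p = 0.00688), although its miR-NC RIP arrays stood at 0.02 and -0.43 and so differed by more than most. The cyclophilin PPIF had the highest enrichment of the mitochondrial genes in miR-NC cells, 0.94 ± 0.06 (SD, n = 2), with 2.89 and 2.92 in the input and 3.87 and 3.82 in the RIP. In miR-634 cells it had 2.83 and 2.87 in the input and 4.19 and 4.08 in the RIP, and its enrichment rose by 0.35 (adjusted p = 0.00694). DNAJC19, a J-domain protein of the import motor, had 1.67 and 1.73, 2.14 and 2.23, 1.60 and 1.57, and 1.0 and 0.97 in the order of groups above. By this probe, an mRNA above its input in the miR-NC RIP was below it in the miR-634 RIP (log2 change -1.08, SE 0.07, adjusted p = 2.92e-05). By its dimmer probe the enrichment was below 0 in both miR-NC (-0.67) and miR-634 cells (-0.96).

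**Figure D3:**
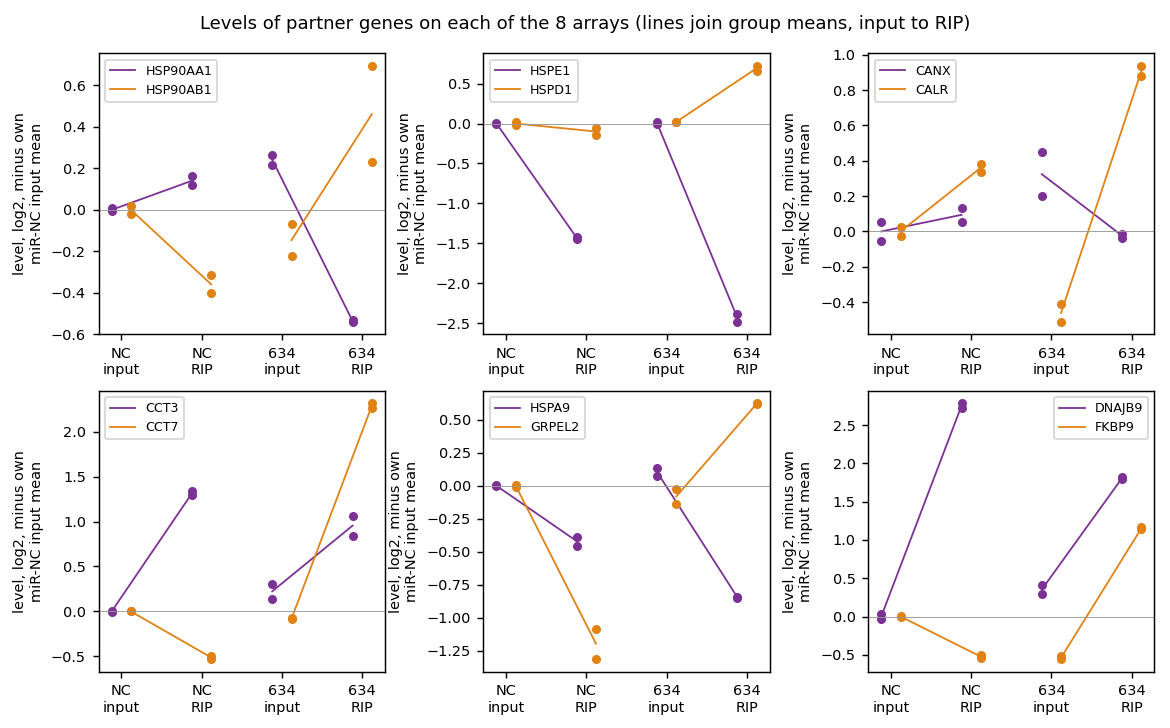
Levels of 6 pairs of genes on each array, on the log2 scale and minus each gene's own mean in the miR-NC input, with lines from the input mean to the RIP mean. In each panel the gene in orange had a higher enrichment in miR-634 than in miR-NC cells and the gene in purple a lower one. The pairs were picked for this contrast, and pairs that moved together, such as GRPEL1 with GRPEL2, are not shown. HSPD1 changed by 0.77 and HSPE1 by -1.01, HSP90AB1 by 0.97 and HSP90AA1 by -0.92.

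Of the 60 genes, 7 were placed by the study in its protein folding term, which it drew from genes enriched in the RIP of these same arrays and lowered in its proteomic data: CALR, DNAJA3, ERP29, FKBP9, GRPEL1, GRPEL2 and HSPD1. All 7 were called higher in the change of enrichment, between 0.77 and 2.22 with a median of 1.59, and because they were chosen on these arrays this count is no independent evidence. The other 47 measured genes had 19 rises and 22 falls, beside 28.1% and 43.3% of all genes, with a median of -0.07. Outside the term, 6 genes had a rise of 1.45 or more, CCT7, CCT8, DNAJB6, FKBP2, DNAJA4 and HSPA8.

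The RIP level uses the same RIP arrays as the change of enrichment and is no second measurement. It was called higher for 27 of the 54 and lower for 18, against 30.9% and 46.5% of all genes. With the percentile over all probes the counts were 29 and 11, and with the spike-in scale 46 and 0, also at an unadjusted p under 0.05. CCT7 had the largest RIP rise, 2.80, and DNAJC19 the largest RIP fall, -1.20. For DNAJC3 the RIP level hardly differed (0.01, adjusted p = 0.93), so that its change of enrichment came with a change of input, and the same was true of DNAJA2 (RIP change 0.06, adjusted p = 0.41).

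In total RNA the changes were smaller. The input change was called higher for 10 of the 54 genes and lower for 9, against 11.7% and 12.1% of all genes. The rises were in 7 ER and 3 cytosolic genes and the falls in 4 cytosolic, 3 ER and 2 mitochondrial genes. These calls were fragile. When 1 of the 4 input arrays was removed, between 1 and 4 rises and 5 falls were called, and 6 of the 19 calls held under every limma alternative other than the spike-in scale. These 6 were the rise of DNAJC3 and the falls of DNAJB6, GRPEL1, FKBP9, CALR and DNAJA4. The input arrays also enter the change of enrichment, so its sign and that of the input change are not independent.

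**Figure D4:**
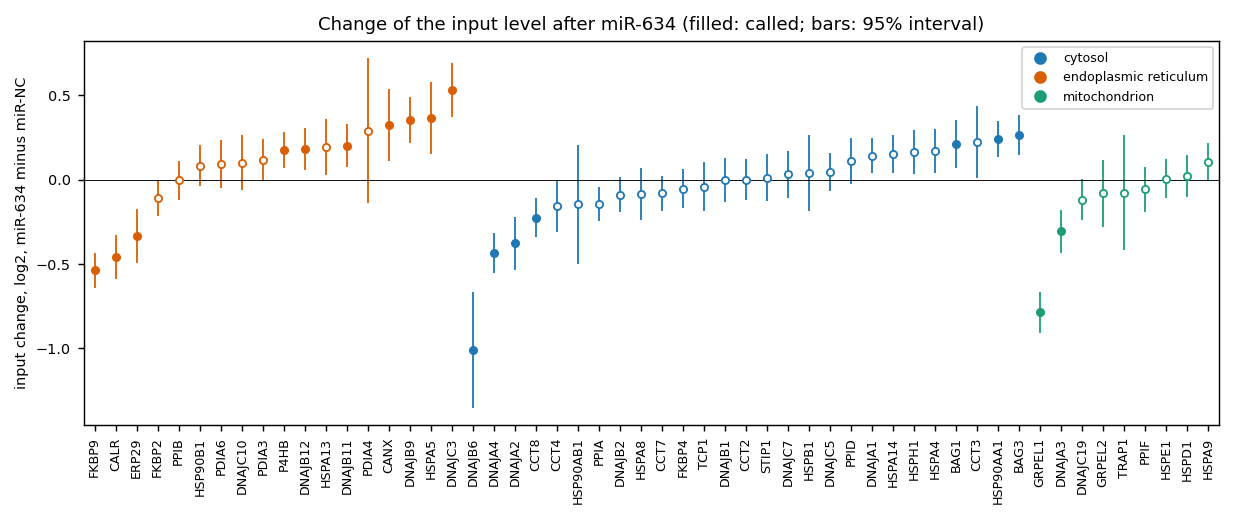
Input change (log2, miR-634 minus miR-NC) of the 54 genes by compartment, with 95% intervals from the limma fit. Filled points were called and open points were not. DNAJC3 stands highest at 0.53 and DNAJB6 lowest at -1.01.

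DNAJB6 had the largest fall in total RNA, from 2.23 and 2.19 in the miR-NC input to 1.22 and 1.19 in the miR-634 input, a 2.01-fold lower level (log2 -1.01, SE 0.14, adjusted p = 0.00508). GRPEL1 fell 1.72-fold (log2 -0.79, SE 0.05, adjusted p = 0.000495) and FKBP9 1.45-fold (log2 -0.54, SE 0.04, adjusted p = 0.000875). CALR fell by 0.46, DNAJA4 by 0.44, DNAJA2 by 0.38, ERP29 by 0.33, DNAJA3 by 0.31 and CCT8 by 0.23. Not every gene with a large rise of enrichment was lower in total RNA. CCT7 had an input change of -0.08 (adjusted p = 0.228), GRPEL2 of -0.08 (adjusted p = 0.518) and FKBP2 of -0.11 (adjusted p = 0.134).

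The 3 largest rises of input were in ER genes. DNAJC3, which inhibits the kinase PERK during ER stress, went from -0.64 and -0.76 in the miR-NC input to -0.19 and -0.15 in the miR-634 input (log2 0.53, SE 0.07, adjusted p = 0.00342). HSPA5 went from 0.14 and -0.0020 to 0.44 and 0.43 (log2 0.37, SE 0.09, adjusted p = 0.0297), and DNAJB9 from -0.79 and -0.74 to -0.35 and -0.47 (log2 0.35, SE 0.06, adjusted p = 0.0074). In these 3 genes the input groups did not overlap, as in 72.2% of all genes. The call of HSPA5 was lost without any 1 of the 4 input arrays (adjusted p between 0.072 and 0.151), and that of DNAJB9 without the miR-NC input array numbered 1 (adjusted p = 0.06). Smaller rises were called for CANX (0.32), BAG3 (0.27), HSP90AA1 (0.24), BAG1 (0.21), DNAJB11 (0.20), P4HB (0.18) and DNAJB12 (0.18).

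These rises were read beside the unfolded protein response, the program by which the ER raises its own chaperones when unfolded proteins collect in it. Of 15 listed genes of that response, 14 were measured, 7 rose in the input and 2 fell, where 11.7% of all genes rose and 12.1% fell, with a median of 0.25 against -0.00 over all genes. The rises of DNAJC3, HSPA5, DNAJB9, CANX and DNAJB11 and the fall of CALR are the calls given above, so this count is no separate evidence. With 1 input array left out, the calls of HSPA5, DNAJB11, CANX, HERPUD1, HYOU1 and DNAJB9 were each lost at least once, and those of DNAJC3, SDF2L1 and CALR held. With the spike-in scale, the rise of DNAJC3 was 0.31 and not called by limma (adjusted p = 0.317). On that scale 0 of the measured genes among the 60 rose in the input at an unadjusted limma p under 0.05. Outside the 60 genes the list held HERPUD1, which acts in ER-associated degradation (0.43), and SDF2L1, a partner of DNAJB11 (0.36), which both rose, and HYOU1 (-0.65), which fell as CALR did. HSP90B1 (0.08), PDIA3 (0.12), PDIA4 (0.29), PDIA6 (0.09) and HSPA13 (0.19) were not called. Of 15 genes of the cytosolic heat shock response, all measured, 2 were called, HSP90AA1 and BAG3, which both rose, and the median was 0.02.

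The ER stress element, CCAAT and CCACG with 9 bases of any kind between them, is a promoter motif through which factors of the unfolded protein response act. Other motifs of that response were not searched. It was searched on both strands of the RefSeq promoter windows of GRCh38.p14, which cover 250 bases before to 50 after a gene start, and was found in 0.0769% of 35116 windows. Of 80 windows of the listed genes, which belong to 55 genes, 7 (8.75%) held it, those of CALR, CANX, HSP90B1, HSPA5 and PDIA6, and all 5 encode ER proteins. The matches are printed to show which of the genes that rose or fell in total RNA carry the motif, with the motif in capitals and 5 bases on either side. They lie at chr19:12938379-12938407 on the minus strand for CALR, chr5:179698773-179698801 on the plus strand for CANX, chr12:103930211-103930239 on the plus strand and chr12:103930316-103930344 on the minus strand for HSP90B1, chr9:125241386-125241414 on the minus strand for HSPA5 and chr2:10812848-10812876 on the minus strand for PDIA6.
CALR: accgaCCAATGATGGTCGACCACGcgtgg
CANX: cccggCCAATCTTCACACTCCACGaagaa
HSP90B1, first: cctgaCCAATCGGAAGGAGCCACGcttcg
HSP90B1, second: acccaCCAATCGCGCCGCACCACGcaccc
HSPA5: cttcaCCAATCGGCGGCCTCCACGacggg
PDIA6: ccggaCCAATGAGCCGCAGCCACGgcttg
Of these 5 genes, HSPA5 and CANX rose in the input, HSP90B1 and PDIA6 were not called, and CALR fell. DNAJC3 and DNAJB9, with larger rises, had no match to these letters in their windows.

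The heat shock element was searched as GAA, TTC and GAA with 2 bases of any kind between neighbours, also on both strands, and was found in 0.490% of the windows and in 6 of the 80 windows of the listed genes (7.50%), those of DNAJA1, DNAJB6, HSP90AA1, HSP90AB1, HSPA8 and HSPD1. The matches of HSPD1, at chr2:197500063-197500085 and chr2:197500068-197500090, lie in the window of another annotated start, outside the HSPD1 window described above. The matches of the cytosolic Hsp90 pair are shown because both genes carry the motif while their mRNAs moved apart. They lie at chr14:102087115-102087137 on the plus strand for HSP90AA1 and, for HSP90AB1, at chr6:44247773-44247795 and chr6:44247826-44247848 on the minus strand.
HSP90AA1: ctcccGAACCTTCCGGAAgaacc
HSP90AB1, first: cccatGAATCTTCCAGAAcctgc
HSP90AB1, second: atccaGAAGCTTCCAGAAcaatc
In total RNA HSP90AA1 rose by 0.24 and HSP90AB1 had a change of -0.15 that was not called (adjusted p = 0.513).

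For 19 of the genes more than 1 probe was above background on all arrays, and in 3 of them, DNAJB6, PPIA and TCP1, the probes gave changes of enrichment of different sign. DNAJB6 stood out. Its probes for NM_005494, a transcript of the short isoform, gave 2.14 and 2.35, and its probe for NM_058246, of the long isoform, gave -0.59. In total RNA the same probes gave -1.01 and -1.04 for NM_005494 and 0.44 for NM_058246, so the values of DNAJB6 above belong to NM_005494. DNAJC19 gave -1.08 with the probe for NM_001190233 and -0.28 with that for NM_145261, and FKBP4 gave 0.24 with its brighter and 1.36 with its dimmer probe. For CCT4, HSPA4, HSP90AB1, HSP90B1, PDIA3 and DNAJC10 the probes differed by less than 0.13 in this change. The enrichment itself could still differ by probe, as in DNAJC10, which had 0.25 with one probe and -1.33 with the other in miR-NC cells.

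**Figure D5:**
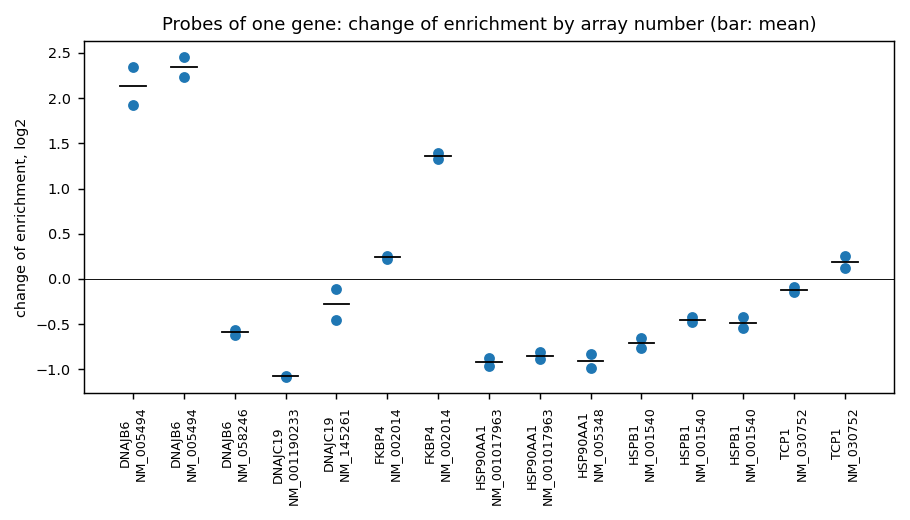
Change of enrichment (log2) for each probe above background on all 8 arrays in 6 genes, with 1 point for each array number and a bar at the mean. Names give the RefSeq transcript of the probe. The DNAJB6 probe for NM_058246 lies at -0.59 and the others of that gene at 2.14 and 2.35.

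The 6 genes not measured were HSPB8 and DNAJB4, above background on 7 arrays, CCT5 on 6, FKBP5 on at most 4, FKBP10 on 0, and ERP44, for which no probe was matched by a RefSeq accession. DNAJB4 and HSPB8 were each above background on all arrays but 1 of the miR-NC RIP. Without a filter on dim probes, 59 of the 60 genes had a value.

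The calls were also counted in folding genes not on the list. A further 62 folding genes outside the 60, cochaperones, prefoldin subunits, ER quality control and mitochondrial proteases among them, were listed for comparison, and 55 were measured. Their change of enrichment was called higher for 17 and lower for 25, close to the 28.1% and 43.3% of all genes, with a median of -0.13. In the cytosol 5 of 25 rose and 14 fell, with a median of -0.47. In the ER 9 of 18 rose and 7 fell (median 0.04), and in the mitochondrion 3 of 12 rose and 4 fell (median -0.08). The medians by compartment thus did not follow the order seen in the listed genes. The largest rises were in SDF2, a protein of the ER lumen (log2 3.79, SE 0.07, adjusted p = 6.23e-07), the mitochondrial protease AFG3L2 (2.28, SE 0.11, adjusted p = 7.61e-06) and HYOU1, an exchange factor of HSPA5 (1.76, SE 0.16, adjusted p = 0.000126). The largest falls were in SERPINH1, the collagen chaperone (-0.87, SE 0.10, adjusted p = 0.000385), the J-domain gene DNAJC8 (-0.86, SE 0.16, adjusted p = 0.00307) and HSF2, a heat shock transcription factor (-0.85, SE 0.18, adjusted p = 0.00582). SDF2, AFG3L2 and HYOU1 were among the genes the study chose on these arrays.

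Some facts of the whole experiment bear on these values. Spots above background made up 45.6% to 45.8% of the input arrays, 33.6% and 34.5% in the RIP of miR-NC cells and 40.0% in both RIP arrays of miR-634 cells. This share is lower in the RIP of miR-NC cells, and its part in the changes of enrichment was not tested. Replicate arrays differed by a median SD of 0.035 to 0.060 on the log2 scale (n = 2 in each group). All 8 listed squamous epithelial markers were measured, as were 0 of 5 fibroblast, 1 of 4 immune (CD14) and 2 of 3 endothelial markers. The endothelial markers were VWF and CDH5, with mean levels of -5.88 and -5.02 in the miR-NC input. The epithelial markers ran from -4.38 (TP63) to 4.02 (EPCAM) there, although levels depend on the probe. Of the known miR-634 targets, 5 were listed (XIAP, APIP, BIRC5, TFAM and LAMP2), and all 5 had a called rise of enrichment, from 0.45 to 3.16 on the log2 scale. These are the targets that the study reported as enriched on these same arrays, so their rises are no independent evidence. Other known targets, OPA1 and NRF2, were not on this list.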

How the data were processed

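RIP-chip was performed in A431 cells on one-color Agilent 8 × 60K arrays, 2 in each of 4 groups, all on 1 slide and in 1 scan, with the inputs in slide row 1 and the RIP arrays in row 2. The authors deposited spot intensities from Feature Extraction, corrected for background within the array and not normalized between arrays. They also deposited processed log2 values from GeneSpring, which matched the log2 intensity minus its 75th percentile over every probe of the array, centered for each probe, and served as an alternative. Depth has no meaning for arrays, and the number of arrays limits the precision.

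Control and outlier spots were removed, spots were averaged by probe, and values were put on the log2 scale, minus each array's 75th percentile over the 16805 of 58201 probes (28.9%) well above background on all 8 arrays. Symbols came from RefSeq accessions (31104 of 33080 probes matched, 22439 symbols). The design's own annotation is on hg19, and coordinates are those of the RefSeq tables of GRCh38.p14, in which 55 of the 60 genes had a promoter window. In R 4.3.3, limma 3.58.1 fitted the 4 group means (lmFit, eBayes) for all 10956 genes, with calls at 0.05 after Benjamini-Hochberg adjustment. In simulated data for the change of enrichment on 10956 genes, 80.5% of 200 genes changed by 1 were recovered, and 5.29% of the calls were false. The simulation held array scaling fixed and changed far fewer genes than were called in the data (28.1% higher and 43.3% lower). These rates therefore do not carry over to the calls above. The members and lists were chosen with earlier results of these data known. Values on every array are given for the 5 genes that rose and the 5 that fell most in enrichment and the 3 of each in input, among genes called and of the same sign in both array numbers, for the study's 7 folding genes and for the highest and lowest enrichment in miR-NC cells per compartment, and other members are named with their changes. Of the further folding genes, the 3 largest rises and falls are named. HERPUD1 and SDF2L1 were named after their values were seen. Python 3.11.15 with pandas 2.3.3 and matplotlib 3.10.9 drew the figures. The alternatives were quantile normalization with or without normexp (offset 50), the processed values of the authors, the percentile over all probes, no filter, averaging a gene's probes, a variance trend with intensity, the array number as a block, leaving out each array, the methods' t-test and, added after seeing the data, a spike-in scale.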

Additional observations from a re-analysis of the deposited data

Results flagged for a closer look

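In 11 genes the enrichment was called in opposite directions in the 2 kinds of cells, and its change, which is the test of the difference, was called as well. Of all genes, 33.6% were called higher and 45.3% lower in miR-NC cells, and 36.1% and 48.3% in miR-634 cells. The share of all genes with opposite calls was not counted, so the 11 are not read as particular to this set. Below the input in miR-NC cells and above it in miR-634 cells were CCT7 (log2 change 2.88), FKBP9 (2.22), DNAJA3 (2.17), FKBP2 (2.12), GRPEL2 (1.90), CCT4 (0.99) and HSPA4 (0.86). Above the input in miR-NC cells and below it in miR-634 cells were DNAJC19 (-1.08), HSP90AA1 (-0.92), P4HB (-0.63) and BAG3 (-0.44). With the spike-in scale, 1 of the 11, CCT7, kept opposite calls, and the changes of the last 4 turned positive. The crossing also depended on the probe. In miR-NC cells the dimmer probes of DNAJC19 (-0.67), P4HB (-0.30) and HSP90AA1 (-0.02 and -0.36) were not above the input. The dimmer probes of CCT4 (-0.51 to 0.55) and HSPA4 (-0.37 to 0.36) did cross from miR-NC to miR-634 cells. Groups of 2 arrays allow no search for a single array that stands apart.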

How the results depend on the processing

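Of the 48 calls in the change of enrichment, 40 held under every limma alternative other than the spike-in scale, and 41 with each array left out. CANX, DNAJB12, DNAJC7, FKBP4, HSPA14, HSPB1, HSPH1 and PDIA6 lost theirs under at least 1. Of the 19 input calls, 6 held under every such alternative. With 1 array left out, in ranges of calls, enrichment in miR-NC cells gave 11 to 17 higher and 21 to 26 lower, enrichment in miR-634 cells 26 to 27 and 22 to 23, the change of enrichment 24 to 26 and 18 to 21 (cytosol 13 to 14 and 6 to 8, ER 5 to 6 and 9 to 10, mitochondrion 6 and 3), the input change 1 to 9 and 5 to 9, and the RIP change 26 to 28 and 17 to 19. The lowest count of input rises, 1, came without the miR-NC input array numbered 1.

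With the authors' processed values or the percentile over all probes, 10 genes were higher in miR-NC cells, 5 cytosolic genes fell in enrichment and 11 fell in the RIP. Without a filter, 1 rose and 5 fell in the input. The methods' t-test called 21 higher and 17 lower unadjusted, and 21 and 15 after Benjamini-Hochberg. A replicate block called 25 higher and 22 lower in the change of enrichment and 7 and 9 in the input change. The array numbers share only a number, with correlations of deviations between -0.04 and 0.08.

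With the spike-in scale, the counts of higher and lower calls were 0 and 53 for enrichment with miR-NC, 6 and 40 for that with miR-634, 41 and 0 for the change (cytosol 24 and 0, ER 11 and 0, mitochondrion 6 and 0), 0 and 6 for the input and 46 and 0 for the RIP, where each count of 0 over all compartments was also 0 at an unadjusted p under 0.05, and the cause was not tested. The change of enrichment then turned positive for HSPA9 (0.55), HSPA14 (0.90), HSP90AA1 (0.16), HSP90B1 (0.50), HSPB1 (0.60), HSPE1 (0.07605), HSPH1 (0.83), DNAJB11 (0.62), DNAJB12 (0.78), DNAJC3 (0.56), DNAJC7 (0.81), DNAJC19 (0.0048), CCT3 (0.50), PDIA3 (0.55), P4HB (0.45), CANX (0.64), PPIB (0.31), PPID (0.24), BAG1 (0.60) and BAG3 (0.65), beside a median of 0.87 over all genes. The input change turned negative for DNAJB11 (-0.0175), DNAJB12 (-0.0374), P4HB (-0.0416) and BAG1 (-0.00643).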
